A study of Ambystoma mexicanum with 7 samples.

Results

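Limb sites absent from the blastema list are stretches of accessible chromatin that were called in axolotl limb cells and had no counterpart among the sites called in the regenerating blastema. They were taken as the peaks of the intact and systemically activated limb lists, on the named chromosome arms, that no blastema peak overlapped by at least 1 base. There were 3559 such peaks among 41952 limb peaks on named arms (43169 with unplaced sequences). The intact list gave 2524 of its 25110 peaks on named arms, or 10.1%, and the systemically activated list 1035 of 16842, or 6.15%. Absence from the blastema list is what chose these sites, so it is given as a description and supports nothing by itself.

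The axolotl, Ambystoma mexicanum, is a salamander that regrows an amputated limb from a blastema, a mound of progenitor cells that gathers under a wound epidermis at the stump. After an amputation, cells of limbs that were not cut can also re-enter the cell cycle, which is called systemic activation, and the study's title ties this state to adrenergic signaling. ATAC-seq tags DNA that the Tn5 transposase can reach. Promoters, enhancers and insulators in use are typically open in this sense, and many enhancers are open in only some tissues or states.

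All animals were wild type by the labels. Homeostatic limb tissue made up the intact group of 3 samples, and limb tissue the systemically activated group of 2, both collected at 14 days post-amputation by the series design. The blastema group held 2 samples of blastema with wound epidermis, for which the labels give no day. From every sample 10000 live cells were sorted for a 4C DNA content, the content reached after DNA replication, and transposed. The blastema samples thus also hold epidermis, and a limb holds many cell types, so fewer cells of a type and less open chromatin per cell cannot be told apart.

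Each group was given as 1 list of peaks with no value per sample, and a further list was deposited for all samples together. No difference between groups could therefore be set against a spread between replicates, and no test of a condition was made. Intervals below are exact binomial 95% intervals over peaks and cover counting error only. The files name no genes and no genome of their build was used here, so defining markers of the tissues, the genes near these sites and their sequences were not analysed. Positions are 1-based within the segments into which the files divide the longer arms, on a build not given in the sources used here.

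Depth set the terms of the comparison. The pileup, the number of fragments stacked over a peak's summit base, could be recovered for 99.9% of intact and 99.8% of activated peaks from the values the authors deposited. A fragment here means a read tag taken as 200 bases long, a length inferred from the steps of the background. The genome-wide background, a measure of depth, was 0.529 fragments per base in intact limb and 0.375 in systemically activated limb. In blastema it was 2.49, which is 4.72 and 6.65 times as high. The blastema list was therefore much the deepest of the 3 group lists.

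The absent sites were the weak end of each limb list. In intact limb the sites absent from blastema and held by that list alone had a median pileup of 9 fragments (middle 50% of sites 7 to 11). Intact peaks with a blastema overlap had a median of 17 (12 to 22). In systemically activated limb the medians were 8 (7 to 10) and 15 (12 to 19). The median −log10 q, the peak caller's confidence within a list, was 3.23 for intact sites held alone and 3.22 for activated sites held alone. It was 5.65 and 5.52 for the overlapped peaks of these lists.

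The absent share was lower in stronger peaks. Of the weakest decile of intact peaks by −log10 q, 30.9% (29.1 to 32.8) were absent from blastema. In the fifth decile the share was 7.64%, in the ninth it was 2 of 2510 peaks, and in the strongest decile none of 2493 was absent, which allows up to 0.148%. The systemically activated list began lower, with 19.5% (17.7 to 21.5) absent in its weakest decile, and 2 of 1674 peaks in its strongest decile were absent. The lowest and second-lowest deciles supplied most of the sites, 30.7% and 24.7% of the intact ones and 31.9% and 23.1% of the activated ones.

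**Figure D1:**
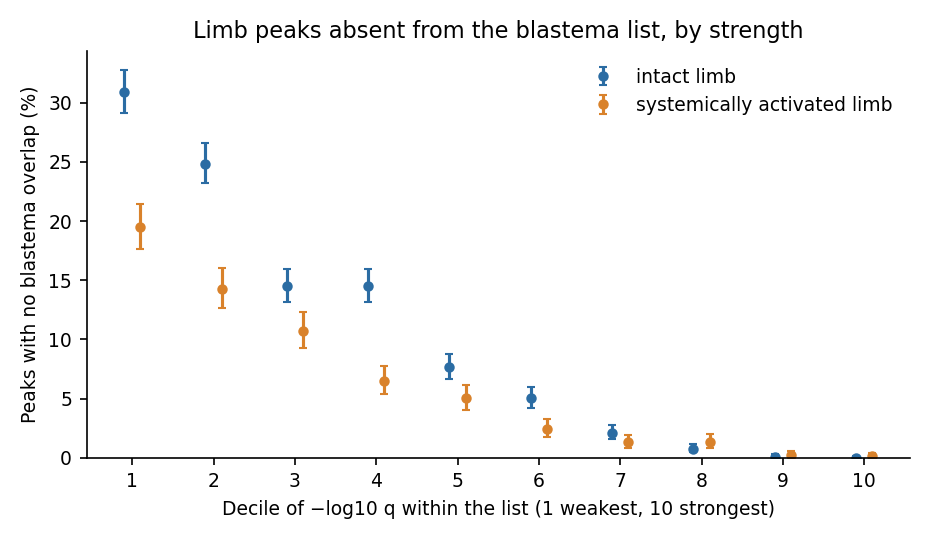
Share of limb peaks on named arms with no blastema overlap (y axis, percent) by decile of −log10 q within the list (x axis, 1 weakest, 10 strongest). Points are shares over the peaks of a decile and bars are exact binomial 95% intervals, and the share drops from 30.9% to 0% in intact limb and from 19.5% to 0.119% in systemically activated limb.

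The same held when peaks were sorted by height. Among intact peaks of 6 to 8 fragments 48.7% had no blastema overlap, against 20.7% at 9 to 11, 7.70% at 12 to 15 and 1.49% at 16 to 20. Above 20 fragments 12 of 7247 intact peaks were absent. In the activated list the shares were 34.1%, 10.1%, 3.03% and 0.562%, and 3 of 2930 peaks above 20 fragments were absent. At each of these heights the activated share was below the intact one, but a fragment is worth more in the shallower activated list, so equal heights are not equal strengths.

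Absent sites were also narrow. The smallest width in these lists is 200 bases, and 45.4% (43.4 to 47.4) of intact sites held alone and 51.5% (48.2 to 54.7) of activated sites held alone were exactly that wide. Over all peaks on named arms the share was 12.1% in intact and 12.8% in activated limb. The widest absent site spanned 682 bases in intact limb and 664 in activated limb. Median width was 208 bases for intact and 200 for activated sites held alone, while overlapped peaks had medians of 376 and 341 bases. Width was not compared at equal pileup, so narrowness is not claimed as a trait apart from low pileup.

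Without regard to height, their surroundings held fewer reads than those of overlapped peaks. Where the local background exceeds the genome-wide value it moves in steps of 0.02, the worth of 1 fragment in a 10 kb window. Intact sites held alone had a median of 43 fragments in that window and activated ones 37, against 112 and 84 for overlapped peaks. In intact limb 16.7% (15.2 to 18.3) of the sites held alone stood at the genome-wide background, against 2.47% of overlapped peaks. In activated limb these shares were 2.29% and 0.881%. The window includes the peak itself, so peak height enters this count. For intact absent and overlapped peaks the median backgrounds were 0.580 and 0.660 at 6 to 8 fragments, and 1.12 and 1.16 at 9 to 11. At 12 to 15 both were 1.78, and at 16 to 20 they were 2.70 and 2.52. For activated peaks the pairs were 0.540 and 0.620, 1.04 and 1.06, 1.46 and 1.56, and 2.24 and 2.10. By these medians absent sites lay lower at 6 to 8 fragments and higher at 16 to 20 in both lists. At 16 to 20, however, the 95% intervals of the absent medians include the overlapped medians. They run from 2.48 to 3.04 in intact limb, and from 1.8 to 3.14 over 23 sites in activated limb. Sparse surroundings are thus not claimed as a trait apart from low height.

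Few sites were called in both limb lists. Of the 2524 absent intact peaks 119 had an overlap in the systemically activated list, a share of 4.71% (3.92 to 5.62), whereas 50.2% of all intact peaks on named arms were. From the other side 116 of 1035 absent activated peaks, or 11.2% (9.35 to 13.3), had an intact overlap, against 76% of all activated peaks. Read the other way, 0.944% of intact peaks that both limb lists held were missing from blastema, and 19.2% (18.6 to 19.9) of those that the intact list alone held. For activated peaks the shares were 0.907% and 22.7% (21.4 to 24.0). None of these shares was compared at equal peak strength, so low sharing is not claimed as a trait apart from weakness. Of the 119 intact sites, 111 had an activated partner that was itself absent from blastema, and the partner of the other 8 reached a blastema peak.

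That left 2405 intact sites and 919 activated sites held by 1 limb list alone, 9.58% and 5.46% of the peaks of these lists on named arms. The lists differ in length. With the intact list cut to the length of the activated list by dropping its weakest peaks, an alternative chosen after seeing the data, 589 intact and 982 activated sites were held alone. This cut by its construction removes intact sites and can only add to the activated ones, so it is no test of the order. These numbers do not show that intact limb had more private sites than systemically activated limb.

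Sites in both limb lists had higher pileups than those in 1, but close folds over background. For intact sites the median fold was 4.90 (95% interval 4.74 to 5.09) in both lists and 5.00 (4.95 to 5.04) held alone. For activated sites it was 5.33 (5.10 to 5.56) and 5.22 (5.17 to 5.26). The 111 loci absent from blastema in both lists had a median pileup of 13 fragments in intact limb and 12 in activated limb. Intact pileup was the higher at 64 loci, activated pileup at 31, and they were equal at 16. These pileups were not scaled for the lower depth of the activated list, so the counts do not order the 2 limbs. The median activated-to-intact ratio was 0.882 (lowest 0.563, highest 1.83). At 2405 regions open in all lists, with every summit within 50 bases of the intact summit, it was 0.773. At the 111 loci the summits of the 2 limb peaks were a median of 91 bases apart, and within 50 bases at 36 loci.

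**Figure D2:**
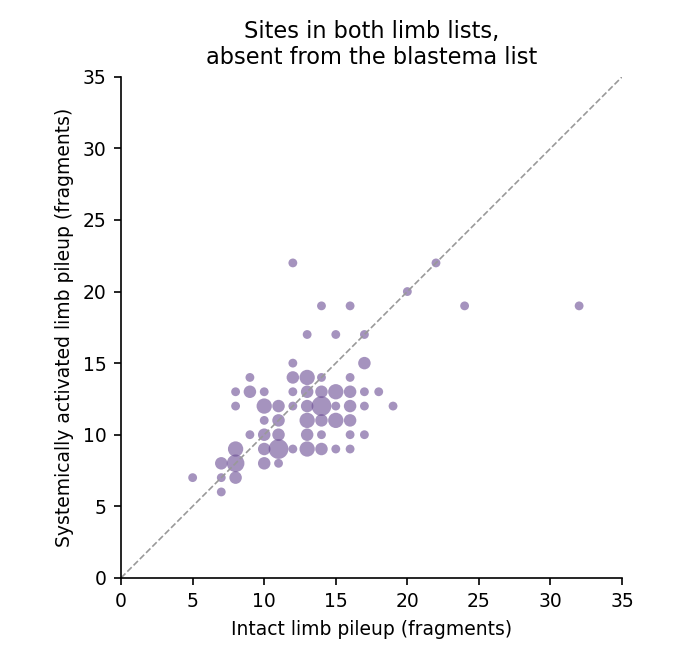
Pileup at the summit in intact limb (x axis, fragments) against systemically activated limb (y axis, fragments) at the 111 loci that both limb lists held and the blastema list did not; point area grows with the number of loci and the dashed line marks equal values. Medians are 13 and 12 fragments, and 64 loci lie below the line, 31 above it and 16 on it. Pileups are not scaled for the lower depth of the activated list.

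Ranked by intact −log10 q, the first of the intact sites with an activated overlap spanned 98990790 to 98991186 on 2q segment 2. Its pileup was 32 fragments in intact limb (exact Poisson 95% interval 21.9 to 45.2) and 19 in activated limb, and a blastema peak lay 192 bases away. The second, on 14q from 353663122 to 353663765, had 22 fragments in each limb list, a blastema peak 18245 bases away, and an all-sample pileup of 60. The third, on 9q segment 2 from 216724233 to 216724574, had 15 intact and 9 activated fragments. On 6p segment 2, from 395596276 to 395596539, the values were 16 and 14 fragments, with a blastema peak at 178 bases. The fifth, on 5q segment 0 from 134244225 to 134244685, was the most isolated of these, with 17 intact and 12 activated fragments and the nearest blastema peak 2883821 bases away. These 5 loci thus ranged from the immediate edge of a blastema peak to a stretch of several megabases without one. The next 3, on 1p segment 2, 8q segment 0 and 12q segment 0, had 15 to 21 intact fragments and 12 to 17 activated ones. The 1p site is not among the 111 loci, since its intact peak lay 130 bases from a blastema peak that the activated peak overlapped by 135 bases.

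That ranking by the intact value names no locus with the higher pileup in activated limb. The absent activated peak with the highest −log10 q of all, 12.9, was in both limb lists and is named after its values were seen. It spanned 182526682 to 182527168 on 8p segment 0 and had 22 fragments (13.8 to 33.3) in activated limb. Its intact partner had 12 fragments and a −log10 q of 3.33. The nearest blastema peak was 23979 bases from the activated peak, and the all-sample pileup was 37.

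Among sites in the intact list alone, the highest −log10 q was 9.07, at a site spanning 100754067 to 100754321 of 4p segment 0. There were 20 fragments (12.2 to 30.9) over a local background of 2.12, and the site ranked 5023 in its list. On 7q segment 0, the site at 210689785 to 210690092 came second, with 12 fragments over the genome-wide background, and no activated peak within 4733403 bases. The third, on 13p from 134693145 to 134693636, had 14 fragments and the nearest blastema peak 130232 bases away. The fourth, on 12q segment 0 from 397679991 to 397680214, had 18 fragments and a blastema peak at 781 bases. Sites on 11p, 7q segment 2, 6q segment 0 and 4p segment 0 followed, with 16, 12, 20 and 15 fragments. The activated peak nearest to any of these 8 was 14968 bases away, from the 12q site.

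Among sites in the systemically activated list alone, 1 stood clear of the rest. It lay on 2q segment 1 from 442058086 to 442058391 and had 26 fragments (17.0 to 38.1), a fold over background of 7.34 and a −log10 q of 12.3, rank 1115 of 17326. The nearest intact peak was 243870 bases and the nearest blastema peak 30599 bases away. The next had a −log10 q of 8.96, on 5p segment 1 from 308575115 to 308575391, with 14 fragments. The third, on 10p segment 1 from 136314842 to 136315078, and the fourth, on 6q segment 1 from 169780380 to 169780740, had 11 fragments each over backgrounds of 0.420 and 0.440. The fifth, on 1p segment 2 from 368471378 to 368471617, had 13. Sites on 5q segment 2, 7q segment 1 and 12p completed the 8, with 11, 15 and 17 fragments. The nearest intact peak lay 72219 bases from the 7q site and 204617 bases from the 12p site, and farther from the other 6.

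Most absent sites lay over 10 kb from any blastema peak. The gaps that sites placed at random would have were not worked out, so remoteness is not claimed as a trait of these sites. Of intact sites held alone, 11.8% (10.5 to 13.1) lay within 500 bases of a blastema peak, 12.8% (11.5 to 14.2) between 500 bases and 10 kb, and 75.4% (73.7 to 77.1) over 10 kb away. For activated sites held alone the shares were 11.3% (9.34 to 13.5), 14.5% (12.3 to 16.9) and 74.2% (71.3 to 77.0). On a log10 scale of bases the counts dipped at gaps of 3 to 3.5, with 56 intact and 25 activated sites, between 108 and 38 at 2.5 to 3 and 193 and 88 at 3.5 to 4. The median gap was 48259 bases in intact and 48168 bases in activated limb. Sites in both limb lists had shorter median gaps, 25702 bases (95% interval 18889 to 37977) against 48259 (44608 to 53148) in intact limb. In activated limb the medians were 28196 (19463 to 39862) and 48168 (42636 to 54861). Gaps were not compared at equal pileup, so shorter gaps are not claimed as a trait apart from higher pileup. Of the 119 intact sites in both lists 18 were within 500 bases and 90 over 10 kb away. The latter share, 75.6%, was close to the 75.4% of intact sites held alone.

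**Figure D3:**
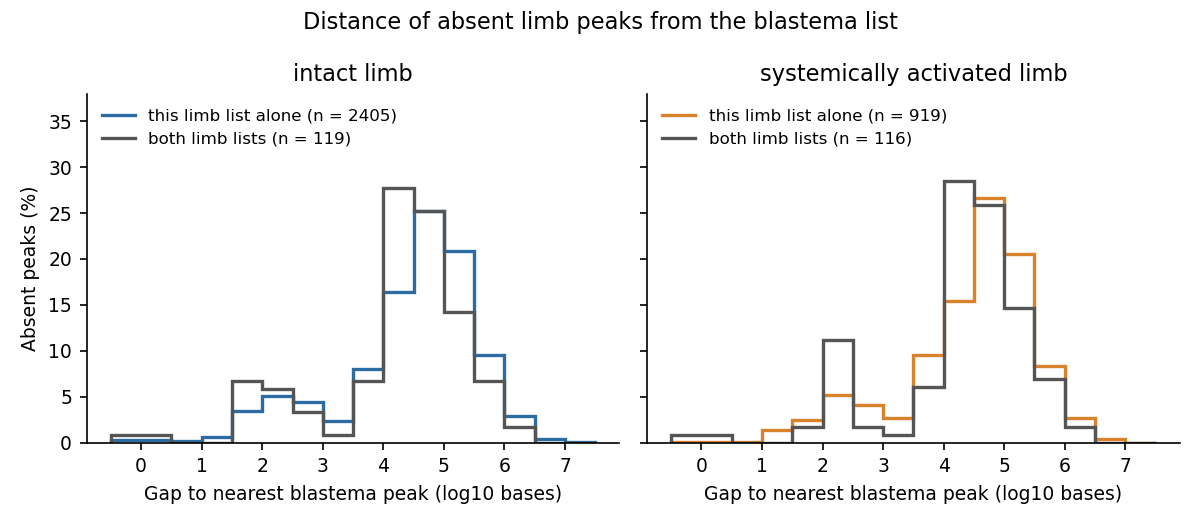
Gap from each absent limb peak to the nearest blastema peak (x axis, log10 bases; gaps under 1 base drawn at 0) as a share of the absent peaks of that class (y axis, percent), in intact limb (left) and systemically activated limb (right). Coloured steps are sites in 1 limb list alone and grey steps those in both; a low hump below 3 is followed by a dip at 3 to 3.5 and a main hump around the medians of 48259 and 48168 bases.

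Most sites within 500 bases of a blastema peak shared an all-sample peak with the neighbouring blastema peak. Of the 301 absent intact sites within 500 bases of a blastema peak, 74.4% (69.1 to 79.3) overlapped an all-sample peak that also overlapped that blastema peak. For the 120 such activated sites the share was 76.7% (68.1 to 83.9). Over all near sites with an all-sample peak, that peak had a median width of 858 bases for intact and 855 for activated sites, below the 1037 and 1093 bases at overlapped limb peaks. The neighbouring blastema peaks were 291 bases wide with a fold of 3.58 beside intact sites, and 312 bases wide with a fold of 3.67 beside activated ones, by their medians. In most cases the limb list did not hold that neighbouring blastema peak: 8.31% of them were overlapped by an intact peak and 11.7% by an activated one. For absent sites over 10 kb away, the nearest blastema peak was so overlapped in 11.97% of intact and 8.03% of activated cases. The share over all blastema peaks was not worked out, so a low share is not claimed as a trait of near neighbours.

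At the edge of the rule, an intact peak on 8p segment 0 from 136789052 to 136789251 touched a blastema peak end to end without sharing a base and counted as absent. An intact peak on 7q segment 1 from 306861091 to 306861356 shared 1 base and did not. In activated limb the closest absent peak lay 2 bases from a blastema peak, on 8p segment 0 from 2195018 to 2195217. The smallest overlap was also 2 bases, on 13p from 75804465 to 75804852. These peaks had −log10 q values of 4.38, 5.32, 3.10 and 2.98 in that order.

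Sites over 10 kb away had a median pileup of 8.5 fragments in intact and 8 in activated limb, against 11 and 9 within 500 bases. Their median −log10 q was 3.23 in intact limb, as it was within 500 bases, and 3.32 in activated limb, against 3.10 within 500 bases. The site farthest from any blastema peak was an intact one on 6q segment 1 from 130807728 to 130807927, at 13202508 bases. It had 8 fragments, and the nearest peak of its own list was 14107605 bases away. The farthest activated site was on 5p segment 2 from 287482266 to 287482498, with 6 fragments, 9833667 bases from a blastema peak and in no all-sample peak. Sites held alone had a median of 1 blastema peak within 100 kb of the summit in either list, and overlapped limb peaks a median of 2 beyond those they overlapped. At 6 to 8 and at 9 to 11 fragments the medians were 1 for absent and 2 for overlapped peaks in either list. At 12 to 15 fragments the medians were 2 for absent and overlapped peaks alike. At 16 to 20 fragments the intact median was 4 (95% interval 3 to 4) over 85 absent sites, against 2 at overlapped peaks. The activated median of 5 rests on 23 absent sites, and its interval of 1 to 6 includes the 2 at overlapped peaks.

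The list deposited for all samples together held most of the absent sites. Of intact sites held alone 83.3% (81.7 to 84.8) and of activated ones 84.0% (81.5 to 86.3) were overlapped by an all-sample peak, and all 119 intact and 116 activated sites of both limb lists were. The background is near complete, since 98.4% of all intact and 99.1% of all activated peaks on named arms had such an overlap, and every peak with a blastema overlap did. The limb peaks on named arms that the all-sample list missed were thus all among the absent sites held by 1 limb list.

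At an absent site the all-sample reads were fewer than at an overlapped site of the same height. Among intact peaks of 6 to 8 fragments the median all-sample pileup was 21 for absent sites (middle 50% 18 to 24) and 33 for overlapped ones (28 to 41). At 9 to 11 fragments the medians were 27 and 44, at 12 to 15 they were 36 and 59, and at 16 to 20 they were 45 and 74. For activated peaks the medians were 23 and 42, 30 and 57, 37 and 73, and 54 and 88. The last activated pair rests on 23 absent sites. Absent sites with no all-sample peak have no value here, and 75.7% of absent intact sites of 6 to 8 fragments had one. The median local backgrounds were 0.580 for absent and 0.660 for overlapped intact peaks of 6 to 8 fragments. At 9 to 11 fragments they were 1.12 and 1.16. The all-sample reads include those that chose the sites, so these differences are a description and not a test.

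**Figure D4:**
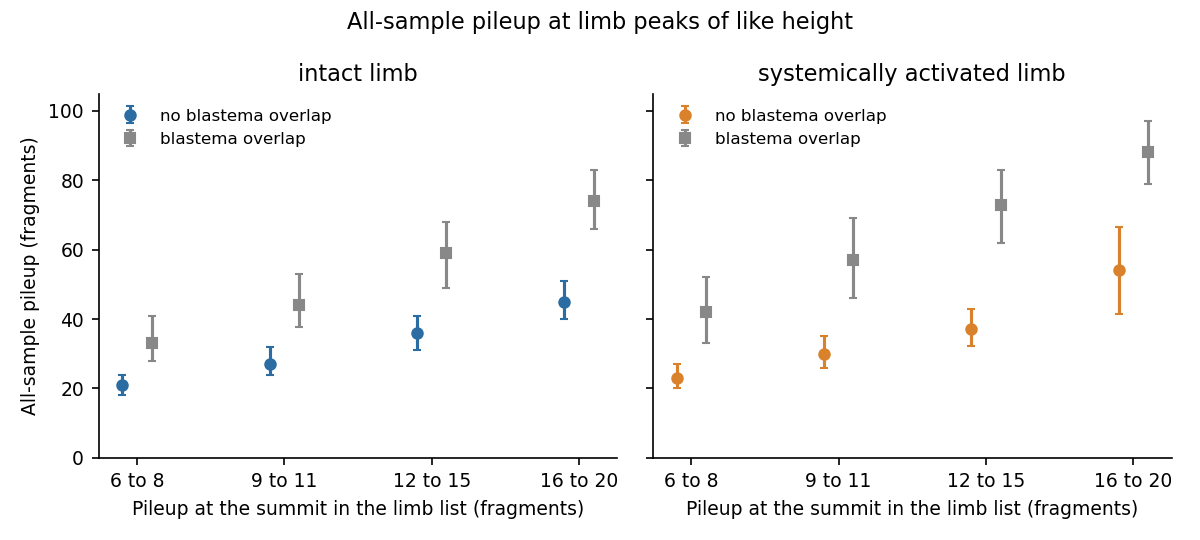
Pileup in the all-sample list (y axis, fragments) at limb peaks grouped by their own pileup (x axis, fragments), for intact limb (left) and systemically activated limb (right). Coloured circles are peaks with no blastema overlap and grey squares peaks with one; points are medians over peaks that an all-sample peak overlaps and bars the middle 50%, and the absent sites sit lower in every class, for example at 21 against 33 fragments for intact peaks of 6 to 8.

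The all-sample pileup was also above the limb pileup at absent sites. The all-sample pileup was a median of 2.79 times the intact pileup at intact sites held alone and 3 times the activated pileup at activated ones, against 4.00 and 5.00 at overlapped peaks. Among sites whose all-sample summit lay within 100 bases of the limb summit, none of 1263 intact sites held alone and none of 474 activated ones had an all-sample pileup under 1.5 times their own. The all-sample pileup was at least 4 times their own at 43 of the 1263 and 42 of the 474 sites, and at 47.6% and 82.9% of overlapped peaks. Only sites with an all-sample peak have such a ratio. The lowest all-sample pileup was 13 fragments at intact and 14 at activated sites held alone. For weak sites the lack of ratios under 1.5 was thus all but fixed in advance. The all-sample reads also include those of the limb, so these ratios are a description and not a test. At the 2q site that led the activated sites held alone the all-sample pileup was 57, or 2.19 times the activated 26. At the leading intact site on 4p it was 47, or 2.35 times the intact 20. The all-sample list cannot be split by group: at regions open in all lists its pileup was 0.860 times the sum of the group pileups, while its background was 1.24 times the sum of theirs.

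Limb pileups were also scaled to the depth of the blastema list. Each limb pileup and its local background were multiplied by the ratio of the list backgrounds, and the product was set against the lowest pileup of any called blastema peak at a background within 10% of it. All 2400 intact and all 917 activated sites held alone with a recovered pileup passed, with medians of 42.5 and 53.2 scaled fragments over floors of 12 and 14. Over all intact and all activated peaks on named arms the share that passed was 100%, rounded. Pileup and background were raised by the same factor, so a peak already called in a limb list could hardly fail. The pass was thus all but fixed in advance, and the part of depth in the absence of these sites was not tested. At regions open in all lists, however, the blastema pileup was only 2.74 times the intact and 3.63 times the activated one, less than the backgrounds imply. With these ratios for the pileup, chosen after seeing the data, the medians were 24.7 and 29.0 fragments, and all sites still passed. Over all peaks 99.9% of either list did.

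How far that margin exceeded counting error depended on the scaling. A pileup of 8 fragments has an exact Poisson 95% interval of 3.45 to 15.8. The lower bound was first scaled by the ratio of backgrounds. The blastema floor was then still passed by 96.5% (95.7 to 97.2) of intact and 98.6% (97.6 to 99.2) of activated sites held alone. Among overlapped peaks 99.6% of intact and 99.9% of activated ones passed, so nearly every peak did. With the ratio at shared regions as the scale, 20.0% (18.5 to 21.7) and 41.8% (38.6 to 45.0) of sites held alone passed. There the floor was still taken at a background scaled by the ratio of backgrounds, which makes this setting the stricter. Neither setting tests why the sites are absent. In the stricter setting, sites of both limb lists had shares of 37.0% (28.3 to 46.3) counted from intact limb and 56.9% (47.4 to 66.1) from activated limb. Among overlapped peaks they were 65.4% and 76.5%. These shares were not compared at equal pileup, so a lower share is not claimed as a trait apart from low pileup. Peaks were also selected for a high count. At the 2q site that led the activated sites held alone the lower bound scaled to 61.6 fragments over a floor of 33.

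The sites were spread over all 28 chromosome arms, unevenly. In intact limb the absent share ran from 4.68% (3.35 to 6.34) on 13q to 13.7% (11.2 to 16.6) on 8q. In activated limb it ran from 3.44% (1.58 to 6.42) on 13p to 8.92% (7 to 11.2) on 2p. On 13q the interval lay below the list's overall share in both lists, with 39 of 834 intact and 21 of 555 activated peaks absent. On 2p it lay above in both lists, with 149 of 1142 and 68 of 762. In intact limb 8q was also above, and 11q and 13p below. In activated limb 4q was also above, at 8.73% (6.68 to 11.2). The intervals are not adjusted for the 28 arms, and both lists are set against the same blastema list, so the arms that recur are not independent evidence.

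**Figure D5:**
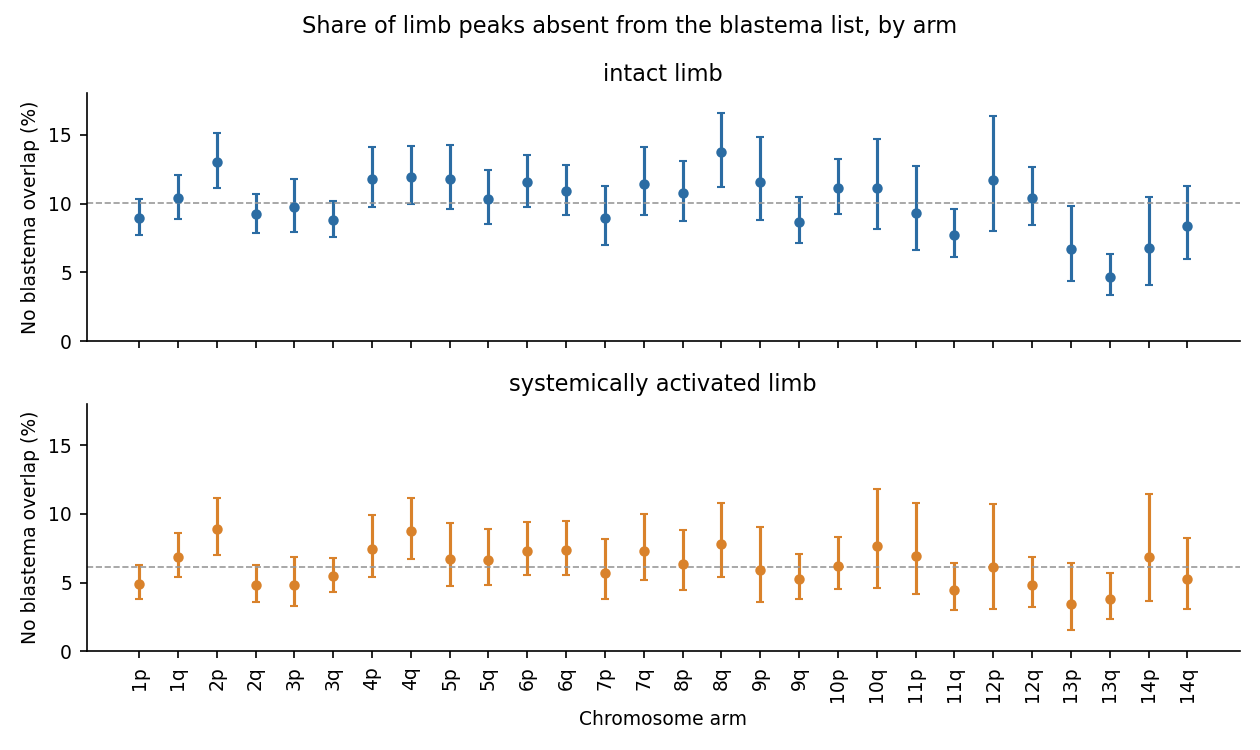
Share of limb peaks with no blastema overlap (y axis, percent) on each of the 28 chromosome arms (x axis) in intact limb (top) and systemically activated limb (bottom). Points are shares, bars exact binomial 95% intervals and dashed lines the share over all named arms, 10.1% and 6.15%; 13q lies below the line and 2p above it in both panels.

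Arms also differed in absent sites relative to peak strength. When each arm's number of absent sites was worked out from the −log10 q deciles of its peaks, 13q was due 77.1 intact and 31.1 activated sites, and held 0.506 and 0.675 times as many. Arm 2p held 1.20 and 1.31 times its expected numbers of 124 and 52.0. Arm 4q held 1.25 and 1.44 times, 8q 1.26 and 1.22 times, and 4p 1.22 and 1.25 times. Below their expected numbers in both lists were also 13p, at 0.717 and 0.610 times, and 11q, at 0.755 and 0.737 times. Arm 14p held 0.870 and 1.40 times, from 18 and 13 absent sites. These ratios carry no interval, and whether they exceed counting error was not tested.

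Absent sites seldom lay next to each other. The spacing that their smaller number alone would give was not worked out, so wide spacing is not claimed as a trait of these sites. The median gap from one absent intact site to the next was 6650540 bases and only 13 of 2458 gaps were 10 kb or less, against 2064 of 25044 gaps between any intact peaks. In activated limb 4 of 969 gaps were that short, against 1174 of 16776 gaps between any activated peaks. Of the 1 Mb windows that held any absent site, 2736 held 1 and only 12 held 4 or more, counting the peaks of the lists together, so that a locus in both counts once per list. The fullest was on 3q segment 1 from 285000001 to 286000000, where 3 of 4 intact and 3 of 4 activated peaks were absent from blastema and 9 blastema peaks lay in the same window. These 6 peaks made up 4 loci once overlapping peaks were merged. A window of 13p (218000001 to 219000000), 1 of 5q segment 0 (339000001 to 340000000) and 1 of 8p held 5 each. In the 5q window the 3 intact and 2 activated peaks overlapped each other and made up 2 loci.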

How the data were processed

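The authors deposited a peak list per group and a further list over all samples, made with Bowtie2 2.3.2 and MACS2, per the submitters' processing notes. The sources used here do not state the build, the filters or how replicates were joined. Samples were tied to lists by the list that each sample's description names. The deposited columns hold a score, a fold over background, and −log10 p and −log10 q values, with positions. They give no counts per sample, and n is 1 list per group. Nothing in the labels says that samples came from separate animals.

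Pileup and local background were solved from the deposited fold and −log10 p values, to a tolerance of 0.001, and the method was tested on simulated data. Overlap meant 1 shared base. Python 3.11.15, numpy 2.4.6, pandas 2.3.3, scipy 1.17.1 and matplotlib 3.10.9 were used. Intervals are exact (Clopper-Pearson for shares, Poisson for pileups) at 95%, and fragments are not independent molecules. The 8 sites with the highest −log10 q in each class, the 3 farthest from blastema peaks in each list, those at the edge of the rule and the fullest windows were named. The sites and rules were chosen with earlier results of these data known. Alternatives changed the overlap, thresholds, list lengths, merging and scaling.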

Additional observations from a re-analysis of the deposited data

Results flagged for a closer look

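Sequences not placed on a named arm were outside the comparisons and also held limb peaks with no blastema overlap. There were 86 among 733 intact peaks, or 11.7% (9.49 to 14.3), and 27 among 484 systemically activated peaks, or 5.58% (3.71 to 8.01). They drew attention because they are signal in data that no comparison above used. The shares on named arms were 10.1% and 6.15%.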

How the results depend on the processing

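No paired analysis was possible because each group has 1 peak list with no value per replicate, and for the same reason no replicate could be left out. Values are given for intact sites held alone, then activated sites held alone, then intact sites in both lists. Requiring 50% of each interval to be shared gave 10597, 6444 and 3845 sites, 96.2% and 97.7% with an all-sample peak, and 80.2% and 87.1% within 1 kb of a blastema peak. A blastema overlap of the summit gave 189 sites in both lists, 86.2% and 86.7% with an all-sample peak, and 29.0% and 28.2% within 1 kb. Counting blastema peaks within 500 bases left 2.78% and 2.45% within 1 kb.

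Limb peaks of −log10 q of at least 5 gave 258, 117 and 16 sites, 94.6% and 95.7% with an all-sample peak, and 9.40% of activated ones within 1 kb. A limb fold of at least 5 gave 1216 intact sites and 47 in both lists, 85.3% of intact ones with an all-sample peak and 11.8% within 1 kb. Blastema peaks of −log10 q of at least 5 gave 3757, 1496 and 338 sites, 89.3% and 90.2% with an all-sample peak, and 6.36% and 6.22% within 1 kb. A blastema list cut to the limb length gave 6789, 3132 and 1271 sites, 94.1% and 95.3%, and 2.65% and 1.34%. The intact list cut to the activated length, chosen after seeing the data, gave 589 intact sites, 49 in both lists and 91.9% with an all-sample peak. Beyond what each alternative does by its construction, the cause of these moves was not tested. Merging limb peaks within 100 bases, adding unplaced sequences and both other scalings moved none of these values beyond their intervals or 1.5 times. Of 30 named sites, 27, 24 and 27 still met the rule with the 500-base margin, the −log10 q of at least 5 and the fold of at least 5.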
